A study of Homo sapiens with 66 samples.

Results

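The comparison concerned the transcriptional response to etoposide in acute myeloid leukaemia (AML) cell lines that differed in sensitivity to the drug. Members were chosen by line, with 1 log2 fold change (etoposide over untreated) per line and gene. The resistant class held 3 lines, whose values are given in the order F-36P, then KASUMI-1, then MONO-MAC-6. The responsive class held 7 lines, namely THP-1, OCI-AML3, NB-4, MOLM-13, HL-60, NOMO-1 and MV-4-11. Together these gave 60 of the 66 libraries and 10 of the 11 lines of the series, since the libraries of OCI-AML2 were left out. In the study's viability assay the resistant lines were those whose IC50 lay above the third quartile, and the IC50 of F-36P lay beyond the tested range. Untreated cells received medium and treated cells received etoposide for 24 h at the IC50 of their own line, with 3 biological replicates of each and 3 wells pooled per replicate. Resistant lines therefore received higher concentrations, so drug concentration and class cannot be told apart. The line was the replicate of a class, each line being 1 established culture with its own genetic lesions.

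Etoposide traps topoisomerase II on cut DNA, which leaves double-strand breaks and activates the damage response. Topoisomerase II also relieves the twist that builds up ahead of RNA polymerase, a load that grows with the length of the transcribed gene. In leukaemic cells MYC drives ribosome production in the nucleolus, while NF-kB and interferon-stimulated genes are known to respond to DNA damage and to nucleic acids in the cytosol.

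Libraries held between 17997404 and 24101670 reads on genes. The number of genes with reads after etoposide was 29738 to 30168 in F-36P, 24884 to 25445 in KASUMI-1 and 22122 to 22298 in MONO-MAC-6, against 19515 to 22977 in the responsive lines. Before treatment it was 19654 to 21295 in the resistant and 19018 to 22422 in the responsive lines. Of 5 haematopoietic markers, 4 or 5 reached 1 CPM (the read count scaled to the library total) in untreated cells of every line. F-36P stood apart in lineage. All 8 erythroid markers reached 1 CPM there, with a summed level of 6731 CPM against at most 15.7 CPM in any other line, and its 4 granule markers summed to 0.997 CPM against at least 146 CPM elsewhere.

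Few single genes passed the test between the classes, and both that did had a lower response in the resistant lines. Among 9687 genes with at least 1 CPM on average in every line, limma called 2 genes lower in the resistant class (0.0206%) and 0 genes higher (0%) at a Benjamini-Hochberg adjusted p below 0.05. At an unadjusted p below 0.05 by limma, 1383 genes were lower (14.3%) and 648 were higher (6.69%). Fits over the 60 libraries, which count libraries and not lines as replicates, called 3541 lower and 2239 higher genes with edgeR, and 3084 and 2586 with DESeq2. A wider view is given by the genes whose classes did not overlap, meaning that all 3 resistant lines lay beyond all 7 responsive lines. These were 494 genes on the lower side (5.1%) and 131 on the higher side (1.35%). With normalization by library size alone these shares were 2.81% and 2.73%, so the excess on the lower side depends on the scaling. That scaling moved the median difference of all genes tested from -0.06 to 0.05 on the log2 scale.

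Most of the genes on the lower side differed in degree. Of the 494 genes, 341 had class means of the same sign with the larger one in the resistant lines, 142 had class means of opposite sign, and 11 were smaller in the resistant lines. Of the 131 genes on the higher side, 56 were larger with the same sign, 70 had opposite signs and 5 were smaller. Untreated levels separated the classes in few of these genes. In the resistant lines they were higher without overlap in 12 (2.43%) and lower in 3 (0.607%) of the 494 genes, against 1.46% and 1.54% of all genes tested. Of the 131 genes they were higher in 0 and lower in 6 (4.58%).

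The transcription factor gene SOX4, which is linked to self-renewal in myeloid leukaemia, had the smallest p. Its log2 fold change was -1.82 in F-36P, -1.24 in KASUMI-1 and -1.12 in MONO-MAC-6, whereas the responsive lines ran from -0.39 in MV-4-11 through a median of 0.07 to 0.39 in OCI-AML3. The classes did not overlap. SOX4 (ENSG00000124766.6, chromosome 6, 21593751 to 21598619, GRCh38) fell in the resistant class relative to the responsive class by 1.44 (SE 0.19, adjusted p = 0.034, limma). In KASUMI-1 its level was 272 ± 11.2 CPM untreated and 116 ± 9.49 CPM after etoposide (SD, n = 3), while in OCI-AML3 it was 132 ± 2.39 and 173 ± 5.73 CPM. Taken line by line with edgeR, SOX4 was repressed more than 2-fold in all 3 resistant lines and in 0 of 7 responsive lines.

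CHCHD6, which encodes a subunit of the complex that shapes mitochondrial cristae, was the other gene called. Its log2 fold change was -1.09 in F-36P, -1.36 in KASUMI-1 and -1.15 in MONO-MAC-6. In the responsive lines it ran from -0.46 in NOMO-1 through a median of -0.23 to -0.09 in THP-1. CHCHD6 differed by -0.94 (SE 0.14, adjusted p = 0.0422, limma) and spans 256.2 kb. With 1 line left out at a time, SOX4 kept its limma call without MONO-MAC-6 or without MV-4-11, and CHCHD6 only without MONO-MAC-6. In the other omissions the adjusted p by limma was 0.0665 to 0.277 for SOX4 and 0.0665 to 0.323 for CHCHD6. Across all these omissions the differences stayed between -1.56 and -1.23 for SOX4 and between -0.99 and -0.82 for CHCHD6.

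Other genes that separated the classes on the lower side did not pass the adjusted threshold and are given by their values. WWOX, a tumour suppressor at a fragile site that spans 1113.3 kb, had log2 fold changes of -0.81, -0.94 and -0.55 in the resistant lines, against -0.06 to 0.33 in the responsive lines (adjusted p = 0.0601, limma). For MSI2, an RNA-binding regulator of haematopoietic stem cells, the resistant values were -1.65, -1.26 and -0.72 against -0.28 to 0.25. The calcium channel gene ITPR1 had a class mean of -0.99 ± 0.43 (SD, n = 3) against 0.12 ± 0.24 (SD, n = 7). SIL1, a nucleotide exchange factor of the endoplasmic reticulum chaperone BiP, had -0.82 ± 0.57 against 0.49 ± 0.33. WWOX, MSI2, ITPR1 and SIL1 each span over 100 kb. The shorter genes were HSD17B10 and MRPS12, with roles in mitochondrial RNA processing and mitochondrial translation, and HEATR3, an import factor for a ribosomal protein. Their differences were -0.71, -1.11 and -0.82, and the adjusted p of the genes in this paragraph, all by limma, reached at most 0.0801.

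On the higher side the separated genes were not called, with an adjusted p of 0.0801 by limma. TRIM36, a ubiquitin ligase gene that p53 can activate, had log2 fold changes of 4.14 in F-36P, 2.69 in KASUMI-1 and 2.42 in MONO-MAC-6. In the responsive lines TRIM36 ran from -0.79 in MOLM-13 through a median of 0.35 to 1.77 in NOMO-1. By line, edgeR called it induced in 3 of 3 resistant and 1 of 7 responsive lines. Its untreated level in F-36P was only 0.056 ± 0.057 CPM (SD, n = 3), so its fold there is poorly determined. H1-10, a replication-independent linker histone, was centred at 0.32 ± 0.38 against -0.61 ± 0.25. MCRIP1, a regulator of ERK-dependent repression, lay near 0 in the resistant lines (0.13 ± 0.29) and at -0.86 ± 0.33 in the responsive lines, where edgeR called it repressed in 3 of 7. The remaining genes named were SLC20A1-DT, RCCD1, WASHC4, PRKD2 and SFR1, with differences between 0.69 and 1.34. Strand use in counting was not given, so reads of SLC20A1-DT and of other transcripts that overlap or abut a neighbour cannot be assigned with certainty.

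A total of 26 genes had opposite directions, with one sign in all resistant and the other in all responsive lines. The 5 with the lowest p were SIL1, WASHC4, TMEM138, FBXO31 and ZNF416. WASHC4, a subunit of the complex that drives actin assembly on endosomes, was positive in the resistant lines (0.48 ± 0.21) and negative in the responsive lines (-0.21 ± 0.16). TMEM138 was -0.53 ± 0.23 against 0.13 ± 0.12, FBXO31, a ubiquitin ligase subunit that acts after DNA damage, was -0.57 ± 0.35 against 0.18 ± 0.13, and ZNF416 was -0.50 ± 0.29 against 0.31 ± 0.22. SIL1, FBXO31, TMEM138 and WASHC4 overlap expressed genes on the opposite strand in the annotation.

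The clearest group pattern was in the nucleolar and MYC target genes. All 25 members were tested and all 25 had a negative difference, with a median of -0.58 against -0.06 over all genes tested. Members called by limma numbered 0 in either direction. At an unadjusted p below 0.05 by limma 13 of 25 were lower, beside 14.3% of all genes. Classes did not overlap in 10 of 25, beside 5.1% of all genes. The list was chosen with earlier results of these data known. The median log2 fold change over the list was -1.48 in F-36P, -1.23 in KASUMI-1 and -1.11 in MONO-MAC-6. In the responsive lines it ran from -0.86 in NB-4 to -0.23 in HL-60. All 10 medians were negative, so the classes differed in the size of the response and not in its direction. The list median was -0.48 without F-36P and -0.47 with library size alone, with 24 of 25 differences negative in either case. With fold changes scaled to the response size of the line, an alternative added after the data were seen, it was -0.27 with 22 of 25 negative.

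By line, edgeR with a false discovery rate below 0.05 and a fold above 2 called 22, 18 and 15 of the 25 genes repressed in the 3 resistant lines, in the order given. The same counts were 11 in NB-4, 7 in NOMO-1, 6 in MV-4-11, 5 in MOLM-13, 2 in OCI-AML3, 1 in THP-1 and 0 in HL-60. Over all genes of each line the repressed share was 6.67% in F-36P, 6.52% in KASUMI-1 and 4.47% in MONO-MAC-6. It was 4.82% in NB-4, 4.43% in NOMO-1, 2.63% in MV-4-11, 3.37% in MOLM-13, 1.36% in OCI-AML3, 3.46% in THP-1 and 1.24% in HL-60. The induced share was 24.3% in F-36P, 14.6% in KASUMI-1 and 8.53% in MONO-MAC-6. In the responsive lines it was 13.2% in NB-4, 8.34% in NOMO-1, 12.5% in MV-4-11, 8.59% in MOLM-13, 7.18% in OCI-AML3, 6.38% in THP-1 and 5.34% in HL-60. By edgeR, 0 of the 25 genes were induced in any line.

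The members with the largest differences were factors of ribosome assembly. RRS1, which recruits the 5S particle to the large subunit, had -2.55, -2.36 and -1.43 in the resistant lines against -1.21 to -0.18. NOP16, another assembly factor of the large subunit, differed by -1.19 (SE 0.34, adjusted p = 0.102, limma). BOP1, which acts in processing of the large subunit rRNA, differed by -1.14 (SE 0.25, adjusted p = 0.0801, limma). SRM makes the polyamine spermidine and had -1.69, -1.76 and -1.48 against -0.93 to -0.14. Its level went from 181 ± 20.4 to 54 ± 10.7 CPM in KASUMI-1 and from 105 ± 2.53 to 97 ± 25 CPM in THP-1 (SD, n = 3). The remaining genes without overlap, named after their values were seen, were PPAN, NME1, MRTO4, POLR1B, NOLC1 and DKC1. The 3 members at the other end of the list were also picked after their values were seen. They had differences of -0.21 for NCL, -0.17 for NPM1, both abundant nucleolar proteins, and -0.05 for HSPD1, a mitochondrial chaperone.

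**Figure D1:**
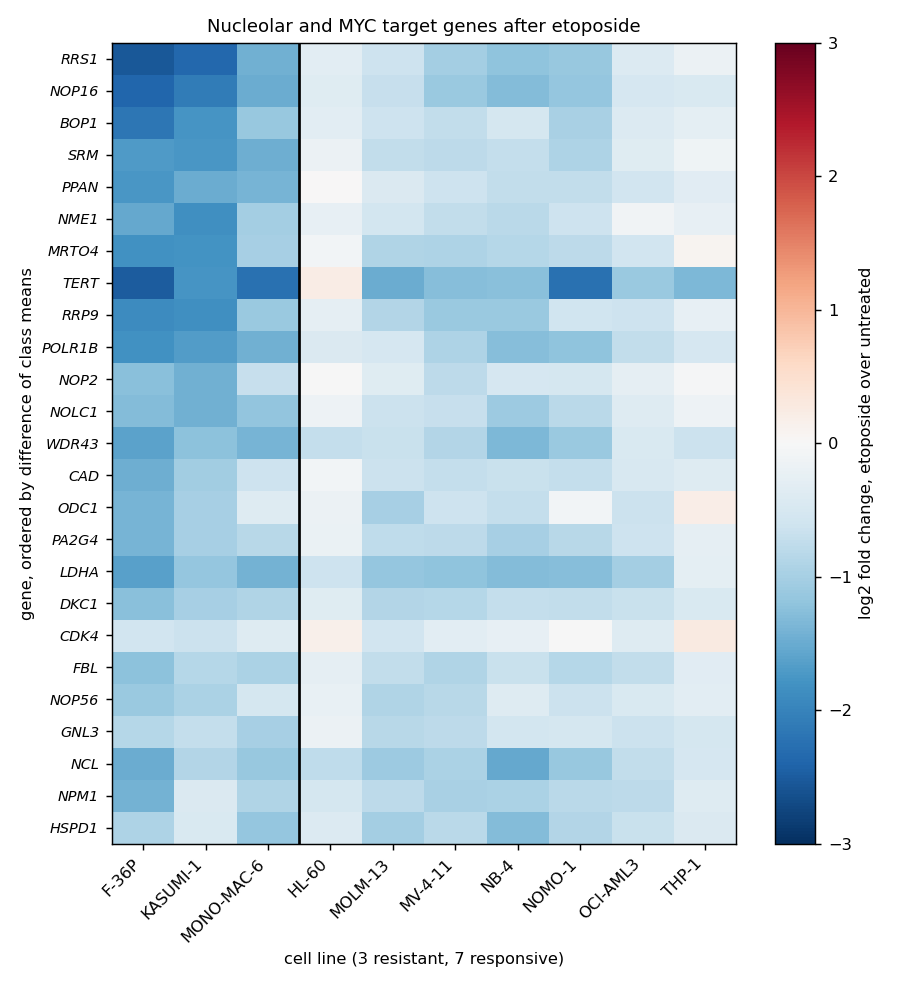
Log2 fold change of the 25 nucleolar and MYC target genes (rows, ordered by the difference of class means) in the 10 lines (columns, the 3 resistant ones left of the black line). Blue is lower and red is higher after etoposide, and in the 7 rows from RRS1 to MRTO4 the 3 left columns are darker blue than all 7 right ones.

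Promoters of this group often held the E-box CACGTG, the site bound by MYC with MAX. The motif was searched for in RefSeq promoters of build GRCh38.p14, from 250 bases before to 50 after the start site. It reads the same on both strands. Of the 22 listed genes with a promoter in the table, 11 held it (50%), against 7.43% of all 27305 promoters and 10.9% of the 7787 promoters of genes tested. Among genes without overlap that have a promoter in the table, the share was 14.2% of 424 on the lower side and 15% of 107 on the higher side. Since the list was named for MYC, the share describes the list and not the difference between classes. The promoters of SRM, MRTO4 and NME1 are shown because these genes both separated the classes and held the motif, set in capitals. SRM lies at chr1:11059969-11060268 on the minus strand with the motif starting at base -199 from the start site. MRTO4 lies at chr1:19251555-19251854 on the plus strand with the motif at base 15, and NME1 at chr17:51153309-51153608 on the plus strand with the motif at base 35.
SRM: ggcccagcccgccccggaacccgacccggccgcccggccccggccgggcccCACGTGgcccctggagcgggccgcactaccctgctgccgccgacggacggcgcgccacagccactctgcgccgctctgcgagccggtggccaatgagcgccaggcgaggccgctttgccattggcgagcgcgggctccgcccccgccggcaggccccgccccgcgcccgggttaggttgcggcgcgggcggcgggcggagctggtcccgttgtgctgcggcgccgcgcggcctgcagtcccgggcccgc
MRTO4: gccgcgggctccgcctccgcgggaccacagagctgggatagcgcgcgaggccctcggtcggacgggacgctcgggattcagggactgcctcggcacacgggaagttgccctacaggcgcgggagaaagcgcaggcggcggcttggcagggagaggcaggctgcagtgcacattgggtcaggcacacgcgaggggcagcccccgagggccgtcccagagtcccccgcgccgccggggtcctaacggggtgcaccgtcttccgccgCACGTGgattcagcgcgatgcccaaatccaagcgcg
NME1: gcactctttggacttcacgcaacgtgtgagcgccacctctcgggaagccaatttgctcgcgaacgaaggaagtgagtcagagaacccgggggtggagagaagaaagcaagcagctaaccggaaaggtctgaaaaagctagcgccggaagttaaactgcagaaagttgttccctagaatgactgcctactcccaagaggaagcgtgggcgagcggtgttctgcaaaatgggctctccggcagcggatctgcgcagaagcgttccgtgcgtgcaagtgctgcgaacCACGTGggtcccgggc
PPAN, NOP16, POLR1B and DKC1 separated the classes without this motif in the window, so holding it was not shared by all of them.

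MYC itself had the order of lines seen in its targets only in part. Its log2 fold change was -3.77 in F-36P, -2.68 in MONO-MAC-6 and -2.17 in KASUMI-1, and the responsive lines ran from -1.98 in NB-4 to -0.53 in HL-60. The classes did not overlap (two-sided exact permutation p = 0.00833, the smallest that 120 splits allow), while limma gave an adjusted p of 0.264. MXD1, a MAX partner that opposes MYC, narrowly separated the classes, with 0.42 to 0.85 in the resistant and 0.87 to 2.15 in the responsive lines. For MXD1 limma gave an adjusted p of 0.38 and the two-sided exact permutation test p = 0.0917. The 10 tested members of the MYC network had a median difference of -0.16 (-0.08 without MONO-MAC-6, -0.04 with library size alone). Of them 2, MYC and MXD1, did not overlap on the lower side, beside 5.1% of all genes. MALT1 and SIRT1 overlapped between classes, with differences of 1.29 and 0.46. The difference of MALT1 was 0.65 without F-36P and 1.82 without MONO-MAC-6, where limma gave adjusted p = 0.322 and 0.0184.

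Values also differed by gene length, with genes over 100 kb at lower values in the resistant than in the responsive lines. Genes spanning over 100 kb (1589 genes) had a median log2 fold change of -0.37 in F-36P, -0.21 in KASUMI-1 and -0.08 in MONO-MAC-6. In the responsive lines that median lay between -0.06 in NB-4 and 0.00 in NOMO-1, so all 3 resistant lines lay below all 7 responsive lines. In genes of 10 to 30 kb (2794 genes) the medians were -0.06, 0.01 and 0.01 in the same 3 lines and -0.07 to 0.04 in the responsive lines. The gap between both bins was -0.30 in F-36P, -0.22 in KASUMI-1 and -0.08 in MONO-MAC-6, against -0.07 in HL-60 to 0.06 in MOLM-13. MONO-MAC-6 thus lay close to HL-60, and its median was lower in genes under 10 kb (-0.11) than in genes over 100 kb (-0.08). Among genes over 100 kb, 8.18% did not overlap on the lower side and 0.503% on the higher side, while in genes of 30 to 100 kb the shares were 3.46% and 1.68%. On the lower side the share was 4.55% in genes of 10 to 30 kb and 6.28% in genes under 10 kb, so it did not rise steadily with length.

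A bin of genes over 300 kb, added after the data were seen, held 196 genes. Its median was -0.81 in F-36P, -0.62 in KASUMI-1 and -0.20 in MONO-MAC-6, against -0.10 to 0.11 in the responsive lines, and 32 of its genes (16.3%) did not overlap on the lower side. These values are descriptions, since genes are not replicates. The order of the 3 resistant lines by this median was also the order of their number of genes with reads after etoposide, whose part in the result was not tested. Genes under 10 kb had a median difference of -0.09.

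Among the 8 tested genes of drug action, 2 efflux pumps, both spanning over 100 kb, did not overlap on the lower side. The share without overlap on that side was 5.1% of all genes and 8.18% of genes over 100 kb. ABCC4, which exports nucleotides and drugs and spans 281.6 kb, had -1.35, -1.28 and -1.12 in the resistant lines against -0.79 to -0.18, and edgeR called it repressed in 3 of 3 resistant and 0 of 7 responsive lines. ABCC1, a known etoposide exporter of 194.1 kb, had -0.91, -0.51 and -0.34 against -0.20 to 1.03 and was called induced in MOLM-13. By limma the adjusted p was 0.0801 for ABCC4 and 0.0978 for ABCC1. The drug target TOP2A had -0.28, 1.15 and 0.04 in the resistant lines against -1.04 to -0.05, so the classes overlapped. Over the 8 tested members the median difference was -0.27, and it was -0.07 without F-36P. With a looser filter all 12 members entered and the median was 0.02, with 7 positive. The pumps that this filter added, ABCB1, ABCC3 and ABCG2, were induced by edgeR in F-36P, and ABCC3 also in MONO-MAC-6. ABCB1 and ABCC3 were induced in THP-1 as well, and ABCB1 in NOMO-1. The induced share of all genes was 24.3% in F-36P, 8.53% in MONO-MAC-6, 6.38% in THP-1 and 8.34% in NOMO-1. The test by line covered ABCB1 in only 4 lines, ABCC3 in 3 and ABCG2 in 1. Whether these pumps rose more than other genes did was not tested.

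Interferon-stimulated genes had higher class means in the resistant lines, but the line medians of the list overlapped between classes. Those line medians were 2.83 in F-36P, 1.83 in KASUMI-1 and 1.09 in MONO-MAC-6, against 0.49 in MOLM-13 to 1.82 in NB-4. MV-4-11 (1.30) and THP-1 (1.23) also lay above MONO-MAC-6. All 12 tested interferon-stimulated genes had a positive difference, with a median of 1.11, and 2 did not overlap on the higher side beside 1.35% of all genes. Without F-36P the median was 0.33, without MONO-MAC-6 it was 1.69, and with fold changes scaled to the response size of the line it was 0.44. The RNA sensor gene IFIH1 had 2.37, 1.55 and 1.09 in the resistant lines against 0.06 to 0.67, and edgeR called it induced in 3 of 3 resistant and 0 of 7 responsive lines. Its level after etoposide in F-36P was 62 ± 31.9 CPM (SD, n = 3), a wide spread. The antiviral GTPase gene MX1 had 4.75, 2.56 and 2.44 against -0.18 to 2.01, and was induced in 3 of 3 resistant and 4 of 7 responsive lines. Among members that overlapped, IFIT3 reached 3.87 in MV-4-11, above its 3.62 in F-36P.

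NF-kB targets had a median difference of 0.73 over 11 tested genes, with 10 positive. It was 0.86 without F-36P, but 0.22 with fold changes scaled to the response size of the line, where 6 of 11 were positive. TNFAIP2 separated the classes, with 1.90, 4.20 and 2.0 in the resistant lines against 0.32 to 1.74. NFKBIA, the inhibitor that NF-kB itself induces, had 0.66, 1.79 and 1.99 against -0.62 to 1.48, so HL-60 exceeded F-36P. Members called induced by edgeR numbered 12 of 16, 12 of 15 and 18 of 20 in the resistant lines. In the responsive lines they numbered 16 of 17 in HL-60, 13 of 19 in NOMO-1 and 10 of 16 in MV-4-11. They were 9 of 17 in THP-1, 8 of 19 in NB-4, 5 of 17 in MOLM-13 and 2 of 16 in OCI-AML3. Over all genes the induced share was 24.3%, 14.6% and 8.53% in the resistant lines and 5.34% to 13.2% in the responsive lines. Induction of this group was not limited to one class. The 11 tested genes of the CARD-BCL10-MALT1 pathway had a median difference of 0.13 (0.25 without F-36P).

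**Figure D2:**
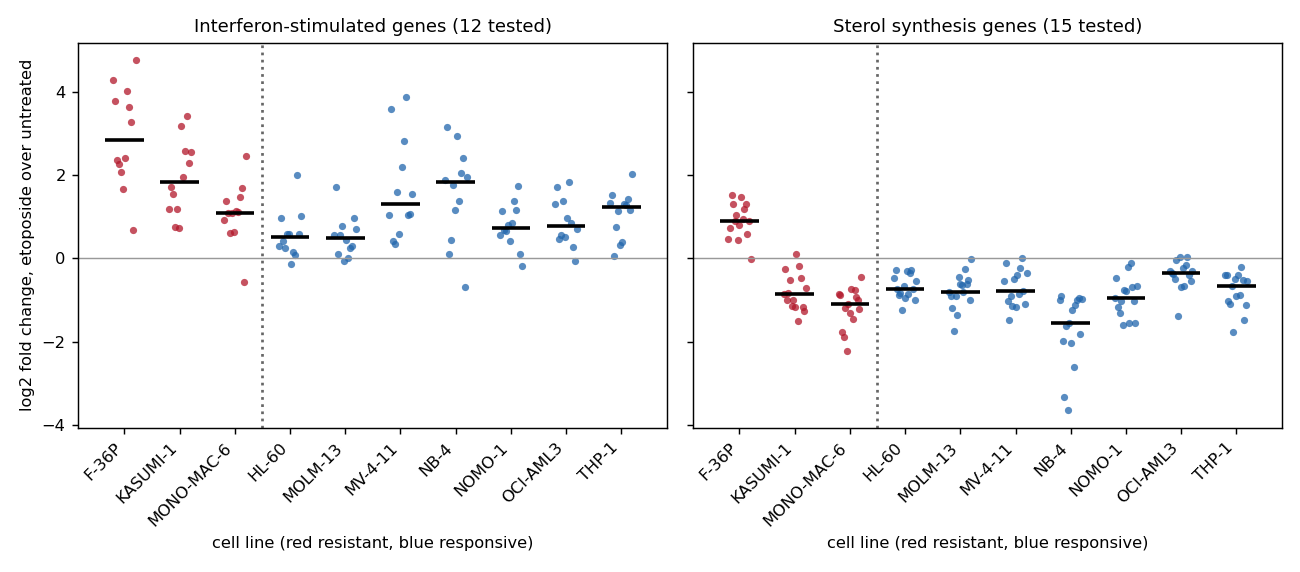
Log2 fold change of 12 interferon-stimulated genes (left) and 15 sterol synthesis genes (right) in each line, with red points for resistant lines, blue points for responsive lines and black bars for the medians. F-36P has the highest median in both panels (2.83 and 0.90) and is the only line with a positive sterol median.

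In sterol synthesis genes the sign of the difference rested on 1 line. All 15 had a positive difference, with a median of 0.46, yet the median log2 fold change was 0.90 in F-36P, -0.87 in KASUMI-1 and -1.09 in MONO-MAC-6, against -1.55 to -0.36 in the responsive lines. Without F-36P the median difference was -0.12, so the direction flipped, while it was 0.75 without KASUMI-1 and 0.88 without MONO-MAC-6. HMGCS1, an early enzyme of the pathway, went from 130 ± 38.2 to 311 ± 21.8 CPM in F-36P and from 522 ± 11.3 to 141 ± 9.56 CPM in MONO-MAC-6 (SD, n = 3).

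The differences of damage and cell cycle genes moved with single lines. CDKN1A, the p53-induced cell cycle inhibitor, was induced in all 10 lines by edgeR, with class means of 3.19 ± 0.82 and 3.35 ± 1.15 and an adjusted p of 0.968 by limma. The difference had an SE of 1.64, and its sign changed without KASUMI-1, without MONO-MAC-6 or without OCI-AML3. MDM2 was called induced in MOLM-13, MV-4-11 and OCI-AML3 and in 0 of 3 resistant lines, and its difference of -0.75 had an adjusted p of 0.433 by limma. Of 20 tested p53 targets, 17 had a negative difference, as had 5557 of all 9687 genes, and the list median was -0.32. The 3 with a positive difference included BTG2 (0.82), induced in all 10 lines by edgeR. With a looser filter all 26 members entered and the median was -0.23, with 19 negative. Of the members this filter added, FAS, TP53I3 and TP53INP1 were each induced by edgeR in 3 resistant and 4 responsive lines. The counts were 0 and 3 for PHLDA3, 0 and 1 for SPATA18, and 1 and 1 for TIGAR. Over all genes 5.34% (HL-60) to 24.3% (F-36P) were induced. TRIAP1, an inhibitor of the apoptosome, did not overlap on the lower side (named after its values were seen). That count, 1 of 20, is near the 5.1% of all genes. Without OCI-AML3 the median of the list was -0.14, with 12 of 20 negative. G2/M genes had a median difference of 0.33 over 21 genes, with 18 positive. Of these, 8 were higher at an unadjusted p below 0.05 by limma, beside 6.69% of all genes. Those without overlap numbered 0, beside 5.1% of all genes on the lower side and 1.35% on the higher side. Without F-36P the median of the G2/M genes was 0.76 with 21 of 21 positive, and without KASUMI-1 it was 0.16 with 14 of 21 positive. Replication genes had a median difference of 0.25 over 25 genes, which was 0.10 without MOLM-13 and 0.40 without F-36P. In this list CCNE2, a cyclin of S phase entry, had 2.32, 2.36 and 1.61 against -0.90 to 1.67. MOLM-13 had the lowest median in both groups, -1.16 in G2/M and -1.01 in replication genes.

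Apoptosis regulators had a median difference of -0.08 over 19 genes (0.03 with library size alone), in which BMF, a BH3-only activator of cell death, had 3.63, 2.44 and 1.31 against -0.04 to 2.17. ATF4 stress genes had -0.15 over 15 genes (0.09 without KASUMI-1), BET and P-TEFb genes -0.05 over 16 genes (0.08 without F-36P), and sirtuins 0.00 over 6 genes. AP-1 and early genes had 0.20 over 16 genes and -0.01 without F-36P. Monocyte and macrophage genes had 0.96 over 6 tested genes, led by the integrin gene ITGAX with a difference of 1.52. That median rested on KASUMI-1, since it was 0.08 without this line, with 3 of 6 differences positive, and 0.28 with fold changes scaled to the response size of the line. The lists with 4 or fewer tested members had medians of -0.94 (histones, 0.93 at a minimum of 5 CPM), 0.13 (erythroid, -0.45 without KASUMI-1), -0.08 (granule, 0.02 with library size alone) and -0.07 (haematopoietic, 0.05 with library size alone). In the granule list SERPINB1, a neutrophil protease inhibitor, separated the classes with 0.24, -0.43 and -0.85 against 0.35 to 1.35. The 7 markers of other cell types had 0 tested members.

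The size of the response over all genes differed slightly by class. The median absolute log2 fold change was 0.43 in F-36P, 0.39 in KASUMI-1 and 0.29 in MONO-MAC-6. It was 0.33 in NB-4, 0.31 in MOLM-13, 0.30 in NOMO-1, 0.28 in MV-4-11, 0.23 in THP-1, 0.23 in OCI-AML3 and 0.21 in HL-60, so MONO-MAC-6 lay among the responsive lines. The class means were 0.37 ± 0.07 (SD, n = 3) and 0.27 ± 0.05 (SD, n = 7), with a two-sided exact permutation p of 0.0417. Without F-36P the exact permutation p was 0.194. When each line was scaled to the same response size, limma called 0 genes, and 3.54% and 1.06% of genes did not overlap on the lower and higher sides. The count of calls also moved with MONO-MAC-6, the resistant line with the smallest response, since limma called 733 genes without it.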

How the data were processed

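Per the labels, etoposide-treated and untreated cells were sequenced as single-end reads from a stranded mRNA kit. The authors mapped reads with STAR 2.5.3a to GRCh38.p7 (gencode 25) and deposited raw counts per gene, 1 file per library. The strand setting of counting is not given in the sources used here. Of 58037 identifiers, 45 Y copies of pseudoautosomal genes with 0 reads were left out. Gene names and positions came from gencode 44 by identifier (56948 of 57992 matched).

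Log2 CPM (TMM over 60 libraries, prior count 2, edgeR 4.0.16 in R 4.3.3) were averaged per line and treatment, and the difference gave 1 fold change per line. Genes whose mean reached 1 CPM in each of 10 lines were compared with limma 3.58.1 (2 groups, eBayes with trend, Benjamini-Hochberg, adjusted p below 0.05). For single values the 120 ways to split the lines gave an exact two-sided permutation p. Each line was tested with edgeR's quasi-likelihood test (3 against 3, fold above 2). DESeq2 1.42.0 was an alternative. Tested on simulated data of 9687 genes, limma recovered 56 of 100 genes with a log2 difference of 1 and 94 of 100 with a difference of 2, with 4 false calls. The simulation drew each gene separately and gave the lines no difference in response size. These rates therefore need not hold for the real comparison.

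Named genes were 10 per direction (called genes without overlap, then uncalled ones without overlap by unadjusted p), up to 4 members per list by absolute difference, MYC, MALT1, SIRT1, CDKN1A and MDM2, and the 5 genes of opposite direction with the lowest p. Some genes that this rule takes are not reported here. Any other name was chosen after its values were seen. Members and lists were chosen with earlier results of these data known. Libraries held 17997404 to 24101670 reads on genes. Alternatives covered normalization, filters, prior count, library-level fits, the replicate block, and leaving out each replicate and each line. Replicate numbers paired treated and untreated libraries only in NB-4 (all 3 correlations above 0.1), and pairing leaves the fold change of a line unchanged. P-values between classes measure the spread between lines. OCI-AML2 was left out of the comparisons.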

Additional observations from a re-analysis of the deposited data

Results flagged for a closer look

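SOX4 and CHCHD6 differed between the classes by the limma test of the difference itself (adjusted p = 0.034 and 0.0422), by -1.44 and -0.937 on the log2 scale, with 3 of 3 resistant lines below 7 of 7 responsive lines in both genes. Of the 26 genes in which all resistant lines had one sign and all responsive lines the other, the 5 with the lowest p differed by -1.31 in SIL1, 0.693 in WASHC4, -0.667 in TMEM138, -0.745 in FBXO31 and -0.812 in ZNF416. These 5 did not pass the adjusted limma test.

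Among the 7 responsive lines, NB-4 stood apart in SLC20A1-DT with a log2 fold change of -1.02, and OCI-AML3 stood apart in H1-10 with -1.13. Chance alone sets about 1 in 20 such groups apart, and 29 genes were checked. In OCI-AML2, which the comparisons left out, CDKN1A had a log2 fold change of 0.731 and passed edgeR's adjusted threshold, while its fold stayed below 2. The study had set aside the etoposide-treated libraries of OCI-AML2 because their raw reads failed quality control. With both thresholds, edgeR called 0 of 13604 genes induced and 0 repressed in that line.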

How the results depend on the processing

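The count of genes called between classes, 2 by limma, was 1 with RLE normalization, 1 with library size alone, 1 at a minimum of 5 CPM, 1 with robust eBayes and 0 with a looser filter over 19846 genes or with fold changes scaled to the response size of the line (added after seeing the data). It was 5780 with edgeR and 5670 with DESeq2 over 60 libraries, which count libraries as replicates, and 5586 in the edgeR fit with the replicate block. Leaving out a line or replicate gave 0 to 733 calls, and the 733 came without MONO-MAC-6. The difference in response size (0.0986) lost its exact permutation call with library size alone (0.0893, p = 0.05), and was 0.0693 to 0.133 over the replicate and line omissions, of which those without F-36P, KASUMI-1, HL-60, MV-4-11, OCI-AML3, THP-1 or replicate 1 lost the call. Median calls per line and the gap by gene span stayed within 1.5 times or 1 SD of the reported values in the settings run. Over 20 limma alternatives, 29 genes taken by the naming rule kept their sign except CDKN1A (-1.224 to 0.1952). The classes held 3 and 7 lines, which limits what differences could be called.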
